A study of Mus musculus with 19 samples.

Results

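Il24, Il19, Il6, Il11, Lif, Csf1, Csf2, Csf3, Il23a and Tslp encode secreted cytokines of the IL-20, IL-6, colony-stimulating factor, IL-23 and TSLP groups. They are 10 of the 24680 genes with a read in any mouse, and they were chosen with their levels in these mice already known, so their differences between groups are given as a description with no test. All 10 passed the filter on low values, at least 0.1 TPM (transcripts per 1000000) in at least 3 mice, which left 22745 genes for the fit. Il24 and Csf3 passed it through E, Y and EY epithelia alone, because no read of either gene was counted in N epithelia.

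Bulk RNAseq was performed on polyA RNA of whole tongue epithelia from 19 mice, 15 days after transgene induction. The series asks what the HPV16 E6-E7 oncogenes and constitutively active YAP1S127A do to oral epithelium, alone and together. All groups received intralingual tamoxifen and doxycycline diet, and the mice were littermates of 8 to 16 weeks in groups balanced for age and sex. E epithelia came from 5 mice with the alleles Krt14-CreERT, LSL-rtTA and tetON_E6-E7. Y epithelia came from 3 mice that carried tetON_YAP1S127A beside Krt14-CreERT and LSL-rtTA. EY epithelia came from 6 mice with both tetON transgenes and both regulatory alleles. Of the 5 N mice, mice 1 to 3 had the regulatory alleles alone, mouse 4 was labelled as LSL-rtTA alone with no Cre, and mouse 5 as having Krt14-CreERT and both tetON transgenes with no rtTA. The study's methods add a tetON H2B-GFP reporter to the animals. Cre is driven by Krt14, so the transgenes start in KRT14+ basal cells, and whole epithelium separated from muscle with collagenase and dispase still holds other cells.

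Cytokines of these families are made by keratinocytes under stress and in wounds as well as by immune cells. IL-24, IL-19 and IL-20 signal through heterodimers of IL20RB with IL20RA or IL22RA1, IL-6 type cytokines through gp130 (encoded by Il6st), and both activate STAT3 through JAK kinases. The colony-stimulating factors drive production and survival of myeloid cells, IL-23 maintains IL-17 producing lymphocytes, and TSLP released by barrier epithelia acts on dendritic and type 2 immune cells.

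The libraries held between 8269674 and 11007304 reads in genes. Median depth was 9637779 reads for the N mice, 9448942 for EY, 8848776 for E and 8679053 for Y. At this depth a single Il24 read was worth between 0.0914 and 0.134 TPM, and a single Csf3 read between 0.208 and 0.305 TPM. All 10 squamous epithelium markers were measured in every group, led by Krt13, with a summed level that ranged from 53900 TPM in EY mouse 5 to 153000 TPM in N mouse 1, so the tissue label held. In bulk RNA, fewer cells of a type and less RNA per cell cannot be told apart.

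IL-24 is an IL-10 family cytokine that keratinocytes make during wound repair, and its gene had the largest fitted difference of the members in EY and in Y epithelia. Il24 was listed at 0 TPM in all 5 N mice. E epithelia had 3.49 TPM in mouse 2, from 29 reads, and 0 TPM in the other 4 mice. In Y epithelia Il24 was at 2.81, 11.5 and 21.5 TPM. All 3 Y mice stood above every N mouse, with Y mouse 1 the lowest. Among the 6 EY mice it ranged from 6.27 TPM in mouse 6 through a median of 23.0 to 58.8 TPM in mouse 4. Every EY mouse was above every N and every E mouse, 3 of 6 were above every Y mouse, and EY mouse 1, at 43.2 TPM, was next to EY mouse 4. Mean Il24 was 27.2 ± 21.4 TPM in EY (SD, n = 6) and 11.9 ± 9.34 TPM in Y epithelia (SD, n = 3). The EY mean lay above those of 87.1% of genes in EY epithelia, and the Y mean above 77.7% in Y epithelia. A floor of 3 reads over the 5 N libraries together equals 0.0629 TPM, so Il24 was at least 432-fold higher in EY and at least 189-fold higher in Y epithelia, or 113-fold without Y mouse 3. Such floors cover counting error only.

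Fitted fold changes are on the log2(TPM + 0.1) scale, where 0.1 TPM is the pseudocount, and understate the change of low genes. For Il24 the fitted log2 fold change was 7.63 ± 0.87 (SE) in EY and 6.49 ± 1.05 in Y against N. These values depend on the pseudocount because N was at 0, and at 1 TPM they were 4.40 and 3.35. EY exceeded Y by 1.14 ± 1.02, close to its standard error. E6-E7 alone gave 1.03 ± 0.91, a value that came from E mouse 2, and without that mouse it was 0.

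**Figure D1:**
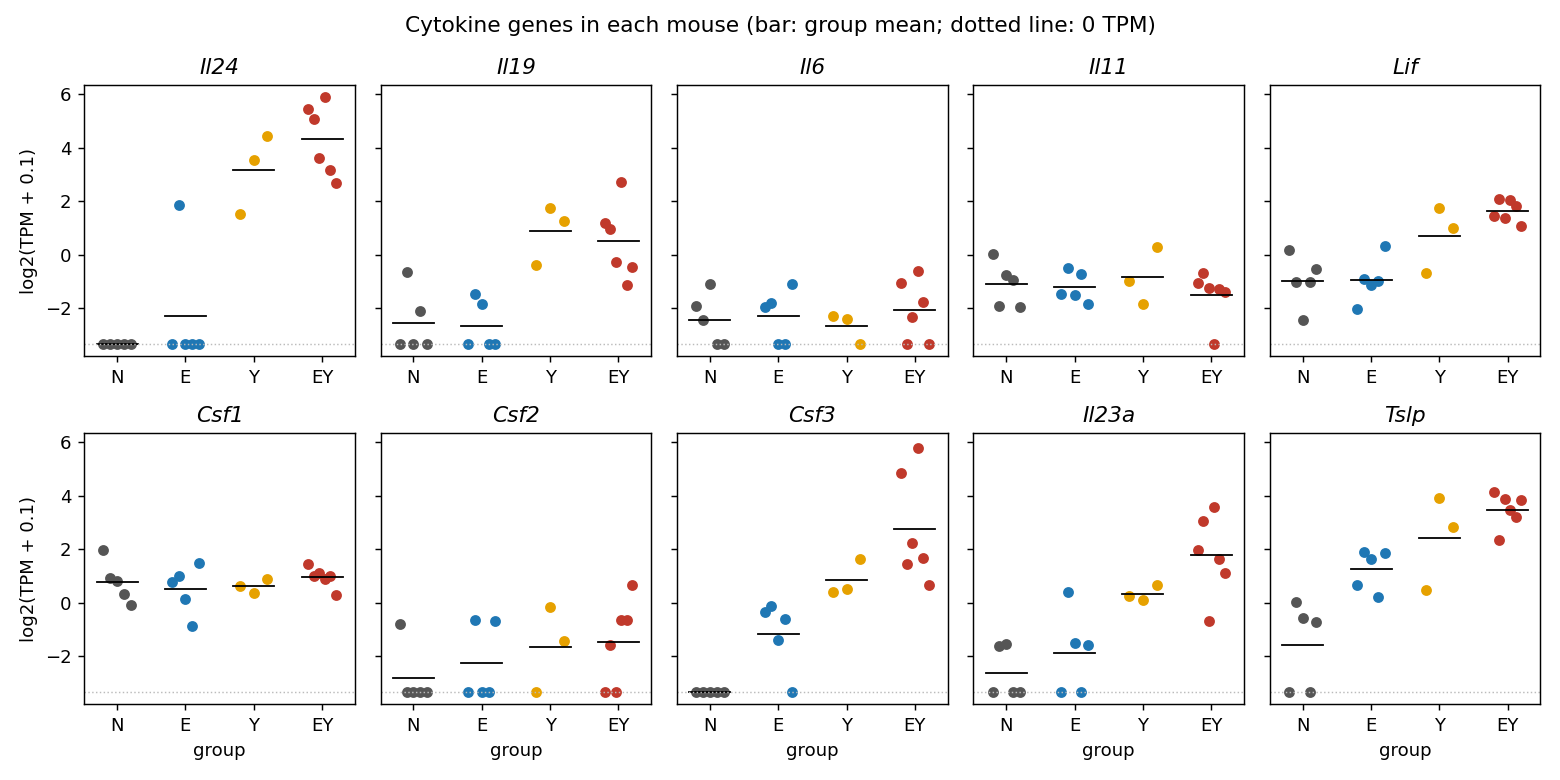
Log2(TPM + 0.1) of the 10 cytokine genes in each mouse, by group, with a bar at the group mean. Il24 and Csf3 sat at 0 in all 5 N mice and reached 58.8 and 54.8 TPM in EY mouse 4.

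IL-19 is a close relative of IL-24 that uses the IL20RB and IL20RA pair. Il19 was read in 2 N mice, at 0.550 TPM in mouse 2 and 0.132 TPM in mouse 4, and was at 0 in the other 3. E epithelia were at 0.261 TPM in mouse 2, 0.177 TPM in mouse 3 and 0 in the remaining mice. Y epithelia had 0.677, 3.24 and 2.28 TPM. All 3 Y mice were above every N mouse, again with mouse 1 the lowest. EY epithelia ranged from 0.353 TPM in mouse 5 through a median of 1.30 to 6.54 TPM in mouse 4. Of the 6 EY mice, 5 were above every N mouse, so the EY and N groups overlapped. Against N, Il19 differed on the log2 scale by 3.04 ± 0.69 in EY and 3.41 ± 0.84 in Y epithelia. The E value of -0.12 ± 0.73 changed sign without N mouse 2, at 0.36, and without E mouse 1, 4 or 5, at 0.05. EY and Y differed by -0.37 ± 0.81, less than the standard error.

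The RefSeq promoter table (build GRCm38.p6) matched 6 of the 9 members looked up, and the 250 bases before the start are shown for Il19 and Lif, which were higher in EY epithelia, and for Il6, which was near 0 in all groups. Both strands were searched for TEAD CATTCC, AP-1 TGANTCA, the NF-kB consensus, STAT TTCNNNGAA, C/EBP TTGCNNAA and the TATA box TATAAA. Capitals mark the matches, none of which overlapped another.
Il19: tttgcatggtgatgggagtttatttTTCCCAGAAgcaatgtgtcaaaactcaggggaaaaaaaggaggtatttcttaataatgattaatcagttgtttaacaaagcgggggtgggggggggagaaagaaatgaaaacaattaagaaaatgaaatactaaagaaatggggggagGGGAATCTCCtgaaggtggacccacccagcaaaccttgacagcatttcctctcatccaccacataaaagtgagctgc
Lif: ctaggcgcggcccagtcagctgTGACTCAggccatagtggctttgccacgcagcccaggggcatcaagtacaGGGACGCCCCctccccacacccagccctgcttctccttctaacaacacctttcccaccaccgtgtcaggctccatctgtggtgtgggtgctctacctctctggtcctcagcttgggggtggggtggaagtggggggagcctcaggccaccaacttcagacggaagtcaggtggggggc
Il6: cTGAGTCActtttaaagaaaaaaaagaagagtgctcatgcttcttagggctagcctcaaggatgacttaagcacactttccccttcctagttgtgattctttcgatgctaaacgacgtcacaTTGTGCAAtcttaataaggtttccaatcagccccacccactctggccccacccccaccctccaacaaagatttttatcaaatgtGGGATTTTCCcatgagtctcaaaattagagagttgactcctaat
The Il19 window, chr1:130940116-130940365 on the minus strand, held a STAT match 225 bases and an NF-kB match 77 bases before the start. The Lif window, chr11:4257318-4257567 on the plus strand, held an AP-1 match at 228 and an NF-kB match at 178 bases. The Il6 window, chr5:30012864-30013113 on the plus strand, held AP-1 at 249, C/EBP at 128 and NF-kB at 44 bases. Of 32851 promoters of this length, 6.75% held the AP-1 letters, 7.25% NF-kB, 7.02% STAT, 9.56% C/EBP, 12.6% TEAD and 12.4% the TATA box. None of these 3 windows held the TEAD or TATA letters, which says nothing about the factors, and no binding was measured. Among the matched promoters not shown, the Csf2 window held 1 TEAD match, 172 bases before the start.

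LIF is an IL-6 type cytokine that signals through LIFR and gp130. Lif was at 1.03, 0.392, 0.0855, 0.395 and 0.593 TPM in N mice 1 to 5. E epithelia had 0.146, 0.433, 0.353, 0.402 and 1.17 TPM. Y epithelia had 0.530, 3.23 and 1.92 TPM. Lif in Y mouse 1 lay among the N values and the other 2 Y mice lay above them. EY epithelia ranged from 2.02 TPM in mouse 6 through a median of 3.03 to 4.15 TPM in mouse 2. All 6 EY mice were above every N and every E mouse, with less spread than for Il24: the EY mean was 3.12 ± 0.880 TPM (SD, n = 6). Lif differed from N by 2.61 ± 0.49 log2 units in EY and 1.66 ± 0.59 in Y epithelia, and by 0.02 ± 0.51 in E, where single mice moved it between -0.34 (without N mouse 3) and 0.31 (without N mouse 1). EY and Y differed by 0.95 ± 0.57.

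Il6 and Il11, the other gp130 cytokine genes among the members, were low in all 4 groups. Il6, which encodes the acute-phase cytokine IL-6, was between 0 and 0.561 TPM, from 0 to 6 reads, and its EY against N log2 fold change was 0.35 ± 0.58. Il11, a gp130 cytokine of stromal and epithelial injury, was between 0 and 1.12 TPM, from 0 to 18 reads, with -0.38 ± 0.50. Leaving out 1 mouse moved Il6 from 0.06 (EY mouse 4) to 0.68 (N mouse 3), and with only the 3 N mice that had both regulatory alleles it was -0.25. Il11 moved from -0.59 (N mouse 5) to -0.02 (EY mouse 4), and the values of both genes are a description with no test.

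Among the colony-stimulating factors, Csf3, which encodes G-CSF, the main driver of neutrophil production, had the largest difference. Csf3 was listed at 0 TPM in all 5 N mice. E epithelia had 0.695, 0.821, 0.279 and 0.565 TPM in mice 1 to 4 and 0 in mouse 5, from at most 3 reads in any mouse. In Y epithelia it was at 1.22, 1.34 and 3.04 TPM. The 3 Y mice and 4 of 5 E mice were above every N mouse. EY epithelia spanned 1.5 TPM in mouse 6, a median of 3.84 and 54.8 TPM in mouse 4. EY mouse 4 and EY mouse 1, at 28.8 TPM, stood far above the remaining EY mice, which reached 4.63 TPM, and these were also the 2 EY mice with the most Il24. Against a floor of 3 reads over the N libraries together, 0.143 TPM, Csf3 was at least 111-fold higher in EY and at least 13.0-fold higher in Y epithelia. The EY bound rested on the mean of 15.9 TPM and was 56.7-fold without EY mouse 4. The fit gave Csf3 a log2 fold change of 6.10 ± 0.80 in EY, 4.18 ± 0.97 in Y and 2.17 ± 0.84 for E epithelia. EY and Y differed by 1.91 ± 0.94, and EY and E by 3.93 ± 0.80.

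Csf1 in EY epithelia stayed within the spread of the N mice, and Csf2 rested on a few reads. Csf1, which encodes the macrophage growth factor M-CSF, was between 0.448 and 3.78 TPM, from 13 to 129 reads, and its highest value was in N mouse 1. Its EY against N log2 fold change was 0.17 ± 0.39 and turned to -0.18 after median-of-ratios scaling and -0.12 after quantile normalization. Without N mouse 1 it was 0.46 and without N mouse 5 it was -0.04. Csf2, which encodes GM-CSF, had from 0 to 6 reads a mouse, between 0 and 1.48 TPM, and 1.34 ± 0.84 in EY against N.

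Il23a encodes the subunit that makes IL-23 when paired with the product of Il12b. Il23a was at 0.224 TPM in N mouse 2 and 0.245 TPM in N mouse 3, 1 read each, and at 0 in the other N mice. E epithelia had 1.24 TPM in mouse 2, 0.252 in mouse 3, 0.240 in mouse 5 and 0 in mice 1 and 4. Y epithelia had 1.10, 0.972 and 1.5 TPM. All 3 Y mice were above every N mouse. EY epithelia ranged from 0.524 TPM in mouse 3 through a median of 3.43 to 11.8 TPM in mouse 4. All 6 EY mice were above every N mouse, and 5 of 6 were above every E and every Y mouse. In the fit Il23a stood 4.40 ± 0.75 log2 units above N in EY and 2.97 ± 0.90 in Y epithelia. Its E value was 0.77 ± 0.78, and 0.20 without E mouse 2. EY and Y differed by 1.43 ± 0.87.

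TSLP is an epithelial alarmin of the IL-7 type. Tslp was at 0, 0.929, 0.580, 0 and 0.503 TPM in N mice 1 to 5. E epithelia had 1.49, 3.67, 2.99, 1.06 and 3.55 TPM. All 5 E mice were above every N mouse, which was so for no other member. Y epithelia had 1.31, 15 and 6.95 TPM, all above the N mice. EY epithelia ranged from 4.94 TPM in mouse 2 through a median of 12.5 to 17.4 TPM in mouse 1. The groups stood in the order N, E, Y, EY by mean, at 0.402, 2.55, 7.74 and 11.8 TPM, with Y overlapping both E and EY. Tslp differed from N by 2.84 ± 0.71 log2 units in E epithelia, by 3.99 ± 0.82 with YAP1S127A alone and by 5.05 ± 0.68 with both transgenes. The EY value departed from the sum of the single-transgene values by -1.78 ± 1.07.

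**Figure D2:**
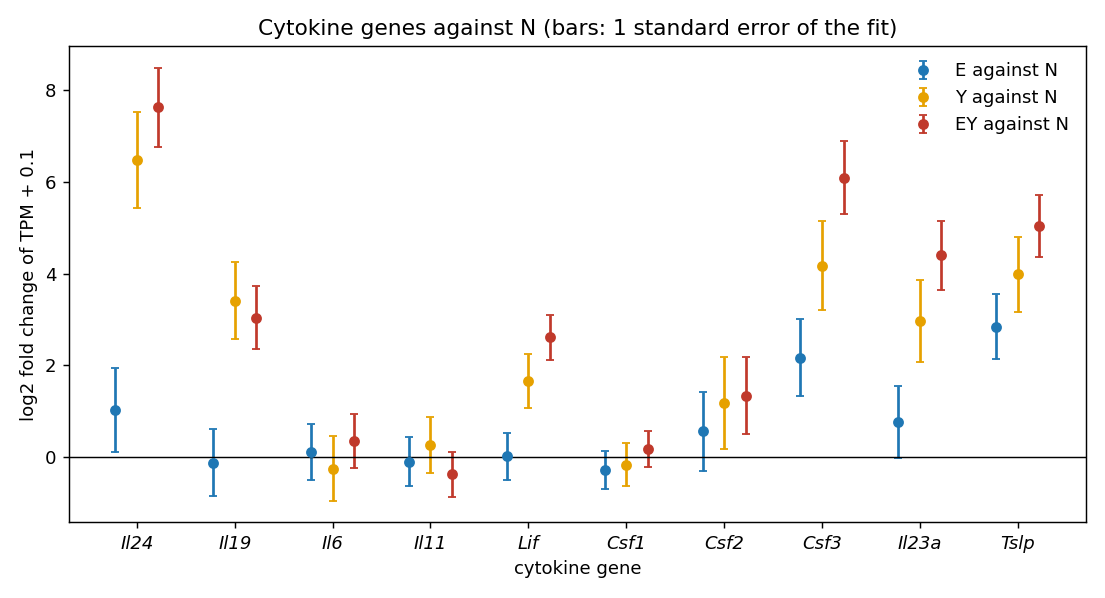
Log2 fold change of each cytokine gene against N in E, Y and EY epithelia on the log2(TPM + 0.1) scale, with bars of 1 standard error. Il24 reached 7.63 in EY epithelia, and Il6, Il11 and Csf1 lay near 0 in all 3 groups.

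DEGs were genes with an adjusted p under 0.01 and an absolute log2 fold change above 1 in limma over the 22745 genes. The members are counted against these thresholds as a description and not as a test, and Il24 and Csf3 entered the fit through groups other than N alone. In EY epithelia 6 of 10 members were past both thresholds (Il24, Il19, Lif, Csf3, Il23a and Tslp), beside 18.3% of all genes, or 12.6% counting higher genes alone. In Y epithelia 4 members were (Il24, Il19, Csf3 and Tslp), beside 4.58% of all genes, or 3.47% higher. In E epithelia limma placed no member past both, and 2 members had an unadjusted p under 0.05 and limma voom called 0, beside 1.20% of all genes, or 1.16% higher. Nothing is read from these shares, since the members were chosen on these comparisons. The E, Y and EY comparisons share the 5 N mice. The Y count rested on single mice: it was 2 without N mouse 1, 3, 4 or 5, 1 without Y mouse 2 or Y mouse 3, and 1 with only the 3 N mice that had both regulatory alleles.

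EY against E gave 5 members past both thresholds (Il24, Il19, Lif, Csf3 and Il23a) beside 12.8% of all genes. EY against Y gave 0 members by limma and 0 at an unadjusted p under 0.05, as by limma voom, beside 2.00% of all genes. The interaction, EY minus E minus Y plus N, also gave 0 members by all of these, beside 0.176% of all genes. Nothing is read from these counts about the members, whose means and standard errors above are the description. The median of all 22745 genes was itself higher by 0.33 in EY epithelia, 0.13 in Y and 0.07 in E, and after median-of-ratios scaling the EY median shift was 0.01. After that scaling the log2 fold changes in EY were 7.42 for Il24, 5.88 for Csf3, 4.77 for Tslp, 4.19 for Il23a, 2.82 for Il19 and 2.27 for Lif, so the order of these 6 members was kept. At a pseudocount of 1 TPM the EY values were 4.40 for Il24, 3.15 for Tslp, 3.06 for Csf3, 2.11 for Il23a, 1.46 for Lif and 1.18 for Il19, so Tslp and Csf3, and Lif and Il19, changed places.

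**Figure D3:**
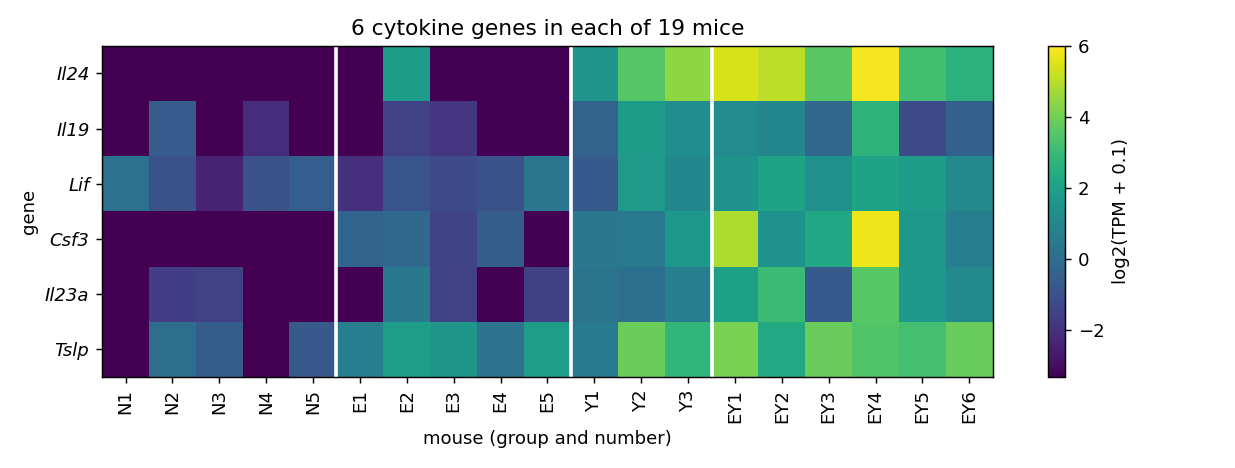
Log2(TPM + 0.1) of 6 cytokine genes (vertical axis) in each of the 19 mice (horizontal axis), as colour. EY mice 1 and 4 had the most Il24 and Csf3, and E mouse 2 was the E mouse with Il24.

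Of 17 receptor genes for these cytokines, all measured, 1 rose and 1 fell in EY epithelia, beside 18.3% of all genes past both thresholds. Their median log2 fold change was 0.63 beside 0.33 for all genes. Crlf2, which encodes the TSLP receptor chain, rose from 5.05 ± 2.19 TPM in N (SD, n = 5) to 12.4 ± 3.15 in EY epithelia (SD, n = 6), a log2 fold change of 1.35 ± 0.24 (limma adjusted p = 0.000196), with 6 of 6 EY mice above every N mouse. Both other scalings gave Crlf2 0.98, just under the fold limit, and ended the call. Lifr, which encodes the LIF receptor chain, fell by 1.20 ± 0.28 log2 units (limma adjusted p = 0.0019), from 0.791 ± 0.214 TPM in N to 0.299 ± 0.133 TPM in EY epithelia, while its ligand gene Lif was higher there. Lifr lay below every N value in all 6 EY mice, and a pseudocount of 1 TPM ended that call. Lifr also fell by 1.45 ± 0.33 in Y epithelia (limma adjusted p = 0.0063), a call that ended without each of N mice 1, 2, 3 and 4 and of the 3 Y mice, where the highest adjusted p over all settings was 0.0316.

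Il6st, which encodes the shared gp130 chain, reached 18.6 ± 1.98 TPM in Y and 18.4 ± 2.39 TPM in EY epithelia from 9.94 ± 2.89 TPM in N. Its log2 fold change of 0.92 ± 0.17 in EY (limma adjusted p = 0.000302) fell short of the fold limit and passed it without N mouse 1 or N mouse 2. Osmr, which encodes the oncostatin M receptor chain, was at 0.95 ± 0.22 (limma adjusted p = 0.00173) and passed the limit without N mouse 1, N mouse 2 or EY mouse 1. For the IL-24 and IL-19 receptors, Il20rb was at 7.83 ± 1.68 TPM in N and 5.02 ± 1.72 TPM in EY epithelia, -0.68 ± 0.23 (limma adjusted p = 0.0219), and became a DEG at -1.05 after either scaling. Il22ra1 averaged 2.65 TPM in N and 2.97 TPM in EY epithelia, and Il20ra stayed between 0.0135 and 0.384 TPM in N mice. Csf3r, which encodes the G-CSF receptor of neutrophils, had 1.40 ± 0.86 in EY (limma adjusted p = 0.214). The EY receptor count of 2 became 5 without N mouse 1 and 4 without N mouse 2. In Y epithelia Lifr was the 1 receptor DEG, and in E epithelia limma gave 0, with 1 at an unadjusted p under 0.05 and 0 by limma voom.

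Of 20 related ligand genes, 16 were measured and 15 passed the filter. In EY epithelia 3 rose (Osm, Kitl and Il33), beside 12.6% of all genes higher. The median log2 fold change was 0.78 over the list and 0.33 over all genes. Osm, which encodes oncostatin M and neighbours Lif in the genome, was at 0.866 TPM in N mouse 1 and 0 in the other N mice and averaged 2.75 ± 2.12 TPM in EY epithelia (SD, n = 6). Its log2 fold change was 3.86 ± 0.84 (limma adjusted p = 0.00113), with 5 of 6 EY mice above every N mouse, and the call ended with only 3 N mice, where adjusted p was 0.0162. Kitl, which encodes stem cell factor, rose by 1.36 ± 0.24 (limma adjusted p = 0.00017) with 6 of 6 EY mice above every N mouse, and a pseudocount of 1 TPM ended its call. Il33, which encodes an alarmin that acts beside TSLP on type 2 cells, rose by 1.12 ± 0.31 (limma adjusted p = 0.00775). Its call did not hold without each of N mice 1, 2, 4 and 5, Y mouse 3 and EY mice 1, 2, 3, 5 and 6, and the scalings brought it to 0.75 and 0.73.

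Il20, the third gene of the Il24 and Il19 cluster, was listed at 0 TPM in all N and all E mice and averaged 0.144 TPM in Y and 0.168 TPM in EY epithelia, with 1.02 ± 0.46 in EY against N, from 7 reads in all. It entered the fit through Y and EY mice alone, so no p is given. Related ligands gave 0 DEGs in Y epithelia by limma, with 3 at an unadjusted p under 0.05 and 1 by limma voom, and 0 in E epithelia, with 0 and 0.

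JAK-STAT and feedback genes lie downstream of these receptors, and 6 of 24, all measured, rose in EY epithelia and 0 fell. Of all genes, 18.3% were past both thresholds, or 12.6% counting higher genes alone. The median log2 fold change was 0.46 over the list and 0.33 over all genes, and nothing is read from the count. The split was 4 higher and 1 lower after either scaling, and 3 higher and 1 lower with only the 3 N mice that had both regulatory alleles. The lower gene was Pias3, which encodes an inhibitor of STAT3, at -0.81 ± 0.18 and below every N mouse in 5 of 6 EY mice (limma adjusted p = 0.00122), -1.18 after median-of-ratios scaling and -1.22 after quantile normalization. Il4ra, a STAT3-inducible receptor gene, averaged 2.59 ± 1.12 TPM in N epithelia, 10.4 ± 3.49 with YAP1S127A alone and 12.5 ± 2.95 with both transgenes. Its log2 fold change was 2.28 ± 0.27 in EY (limma adjusted p = 3.26e-06) and 2.00 ± 0.33 in Y (limma adjusted p = 0.000544), with all EY and all Y mice above every N mouse. Socs1 and Socs2 encode feedback inhibitors of cytokine signaling. Socs1 rose by 1.78 ± 0.36 (limma adjusted p = 0.000575) and Socs2 by 1.66 ± 0.36 (limma adjusted p = 0.00105), each with 6 of 6 EY mice above every N mouse. Cebpd, a STAT3 target in epithelia, rose by 1.56 ± 0.24 (limma adjusted p = 4.62e-05). Bcl3, an NF-kB cofactor, rose by 1.33 ± 0.26 (limma adjusted p = 0.000476), and either scaling brought it to 0.96 and ended the call. Steap4, a metalloreductase gene induced by cytokines, rose by 1.74 ± 0.47 (limma adjusted p = 0.00586), a call that ended without each of N mice 3, 4 and 5 and EY mice 1 to 4 and after either scaling. With only the 3 N mice that had both regulatory alleles, the Socs2, Bcl3 and Steap4 calls ended.

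Stat3 itself was at 6.97 ± 1.53 TPM in N and 12.2 ± 1.12 TPM in EY epithelia, 0.82 ± 0.13 (limma adjusted p = 6.22e-05), under the fold limit. Socs3, the main STAT3 feedback inhibitor, was the most abundant of the 3 Socs genes named, at 79.9 ± 20.9 TPM in N and 82.2 ± 17.1 TPM in EY epithelia, with 0.05 ± 0.32 (limma adjusted p = 0.916). In Y epithelia 3 of these genes rose (Il4ra, Socs2 and Bcl3), where Socs2 had 1.83 ± 0.43 (limma adjusted p = 0.00729) and Bcl3 1.55 ± 0.31 (limma adjusted p = 0.00272). The Y call of Socs2 ended without each of N mice 1, 3, 4 and 5 and Y mice 2 and 3, and that of Bcl3 without Y mouse 1 or Y mouse 3.

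The G-CSF axis list held 16 genes that induce Csf3, act beside it on neutrophils or belong to the IL-23 and IL-17 pathway, all measured. In EY epithelia Cxcl1, Cxcl3 and Il17c rose and Il17f was past both thresholds too, beside 12.6% of all genes higher. The median log2 fold change over the list was 1.26, or 1.55 with Il17f at its bound, beside 0.33 over all genes. Cxcl1, a neutrophil chemoattractant, averaged 3.98 ± 2.92 TPM in N, 69.0 ± 30.1 TPM with YAP1S127A alone and 148 ± 102 TPM with both transgenes. Its log2 fold change was 5.19 ± 0.77 in EY (limma adjusted p = 3.2e-05) and 4.34 ± 0.93 in Y (limma adjusted p = 0.004), and the Y call ended without N mouse 4 or 5 or without Y mouse 2 or 3. Cxcl3, a related chemoattractant, rose by 4.17 ± 1.13 (limma adjusted p = 0.0064) with 5 of 6 EY mice above every N mouse, and its call ended without each of N mice 3, 4 and 5 and EY mice 1, 2 and 4.

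Il17c, which encodes the epithelial member of the IL-17 family, was highest in Y epithelia, at 9.28 ± 1.55 TPM (SD, n = 3), beside 2.05 ± 0.981 in EY and 0.388 ± 0.559 TPM in N. Il17c rose by 5.19 ± 0.90 in Y (limma adjusted p = 0.000786) and by 2.93 ± 0.75 in EY (limma adjusted p = 0.00393). EY and Y differed by -2.25 ± 0.87 (limma adjusted p = 0.122), which did not pass, though it did at a pseudocount of 1 TPM and by limma voom, and the EY call ended without each of N mice 1, 3 and 5 and EY mouse 1. Il17f, a cytokine of IL-23-dependent lymphocytes, was listed at 0 TPM in all N and Y mice and averaged 0.182 ± 0.139 TPM in EY epithelia, at least 7.26-fold above the floor of 3 reads over the N libraries. Il17f entered the fit through EY mice alone, from 23 reads in all, so no p is given. Il1b, a strong inducer of Csf3, had 1.95 ± 0.67 in EY (limma adjusted p = 0.0253). The EY count over the whole list, 5, was 8 without N mouse 1 or EY mouse 6 and 3 without N mouse 3, N mouse 5 or EY mouse 1. In Y epithelia Cxcl1 and Il17c rose, and in E epithelia limma gave 0, with 1 at an unadjusted p under 0.05 and 0 by limma voom.

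**Figure D4:**
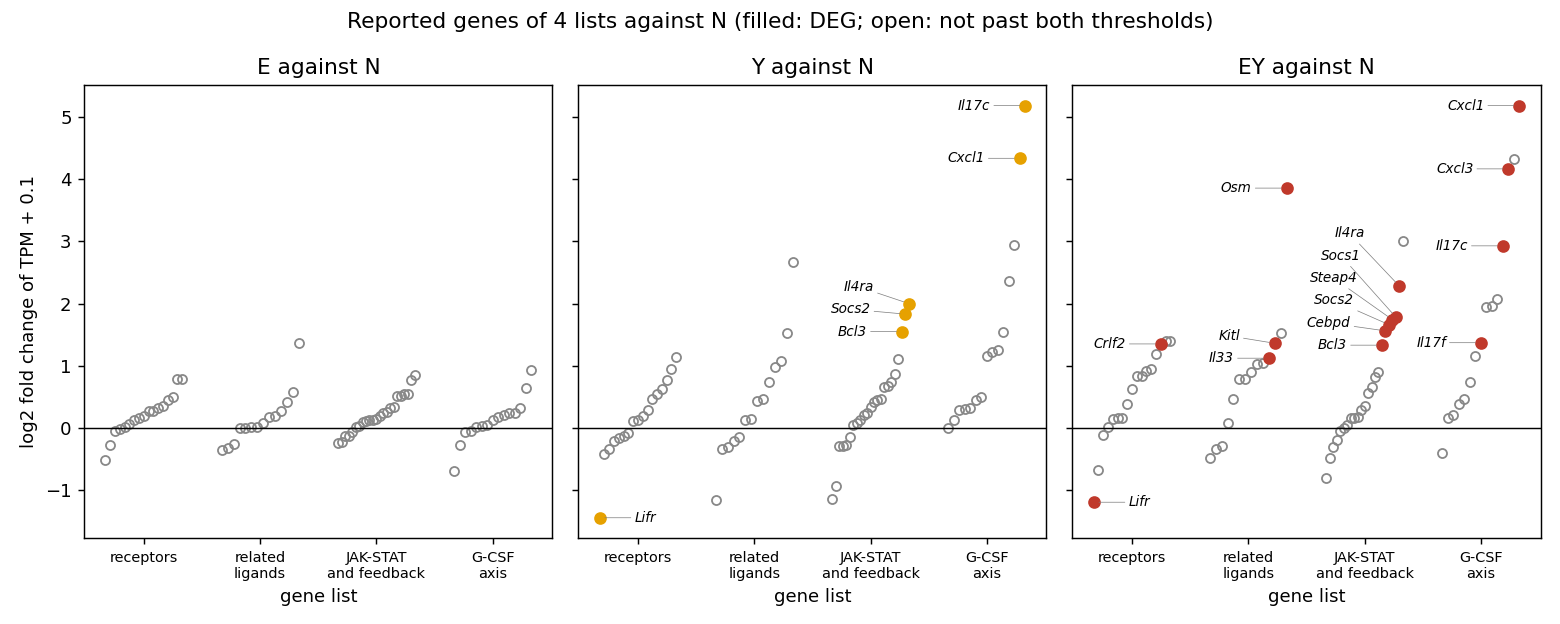
Log2 fold change against N of the reported receptor, related ligand, JAK-STAT and G-CSF axis genes in E, Y and EY epithelia. Filled points are DEGs, such as Cxcl1 at 5.19 and Lifr at -1.20 in EY epithelia.

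Over the 71 tested genes of these 4 lists, EY against E gave 11 DEGs, 8 of them higher, and 7 without E mouse 4, beside 12.8% of all genes. EY against Y gave 1, Il17f, from which nothing is read because EY mice alone brought it into the fit, and of the 19 fits without 1 mouse the call was kept in those without E mouse 4 or EY mouse 2, 3 or 5. The interaction gave 0 by limma and by limma voom, with 12 at an unadjusted p under 0.05, so no list gene was shown to depart from the sum of the single-transgene changes.

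The RefSeq gene table matched all 10 members and gave 19 neighbouring genes, 10 of which were tested. In EY epithelia 4 neighbours passed, Fcmr beside Il24, Tyms beside Il6, Osm beside Lif and Stat2 beside Il23a, where 18.3% of all genes passed. Fcmr, an Fc receptor gene, had 2.37 ± 0.44 (limma adjusted p = 0.000285), and its call ended at a pseudocount of 1 TPM. Tyms, which encodes thymidylate synthase, rose by 2.19 ± 0.16 (limma adjusted p = 1.43e-08) while Il6 stayed near 0, and it also rose by 1.47 ± 0.17 in E (limma adjusted p = 3.68e-05) and by 1.09 ± 0.20 in Y epithelia (limma adjusted p = 0.00108). The Y call of Tyms ended without N mouse 4 or Y mouse 2 and after either scaling. Stat2, an interferon signaling gene, rose by 1.74 ± 0.46 in EY (limma adjusted p = 0.00542) and had 1.84 ± 0.48 in E epithelia (limma adjusted p = 0.0427), with means of 17.9 and 21.4 TPM beside 5.54 TPM in N. Its E value was no smaller than its EY value, and the EY call ended without each of N mice 2 to 5 and EY mice 2, 3, 5 and 6. Psmd3 and Med24, on the sides of Csf3, were not DEGs.

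The genes whose levels followed each member most closely over the 19 mice were ranked by Pearson r of log2(TPM + 0.1), a description in which group differences and mouse differences are mixed. For Il24 these were Plet1os (0.963), Cnn3 (0.958) and Plet1 (0.956). Csf3 was followed by F11r (0.971), Mrpl11 (0.945) and Myl12a (0.940), and Il23a by Tnfrsf10b (0.951), Hspa5 (0.948) and Heatr1 (0.947). The closest to Tslp were Atp5e (0.945), Ndufa5 (0.921) and Lsm5 (0.918). Il19 was most like Slc26a4 (0.919), Sec11a (0.899) and Txndc17 (0.893), and Lif most like Scoc (0.929), Bud31 (0.919) and Alg14 (0.918). Csf1 went with C3 (0.878), Tyrobp (0.876) and Ptprc (0.870), of which the latter pair mark leukocytes. Csf2 went with Cytip (0.827), Il7r (0.823) and Gm10182 (0.812). Il6 and Il11 had no gene above 0.777 and 0.725.

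Markers of cells other than keratinocytes were read beside the cytokines. The marker counts stand beside 18.3% of all genes past both thresholds in EY epithelia, 4.58% in Y and 1.20% in E. Of 14 neutrophil markers 13 were measured, and in EY epithelia 5 were DEGs, all higher (Cd177, Ly6g, Mmp8, S100a8 and S100a9), beside 2 in Y (S100a8 and S100a9) and 0 in E epithelia by limma, where 0 had an unadjusted p under 0.05. Their summed level was from 12.2 to 84.3 TPM in N and from 5.97 to 88.1 TPM in E mice. Y mice had 771, 964 and 550 TPM and EY mice from 84.6 TPM in mouse 6 through a median of 647 to 1050 TPM in mouse 4. S100a8 was the most abundant of these markers in every group, at 381 TPM of the 587 TPM mean sum in EY epithelia, and it is also made by keratinocytes. In Y epithelia S100a8 averaged 496 TPM beside 16.2 TPM in N, S100a9 249 TPM beside 6.51 TPM and Mmp8 0.762 TPM beside 0.189 TPM. Retnlg and Ngp also averaged higher in Y, at 10.7 and 0.554 TPM beside 0.425 and 0.27 TPM in N. Mmp9, Ltf and Camp averaged lower in Y, at 0.399, 1.71 and 0.0973 TPM beside 1.74, 4.27 and 0.467 TPM in N. In EY epithelia Mmp9 and Ltf were below the N means too, at 1.25 and 1.64 TPM. Mpo was at 0 TPM in all Y mice and averaged 0.0216 TPM in N. Ly6g was listed at 0 TPM in all N, E and Y mice and in EY mouse 6, and averaged 0.972 TPM in EY epithelia from 35 reads in all. Ly6g entered the fit through EY mice alone and Cd177 through Y and EY mice alone, so nothing is read from those 2 calls. The part of these cells in the cytokine levels was not tested.

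**Figure D5:**
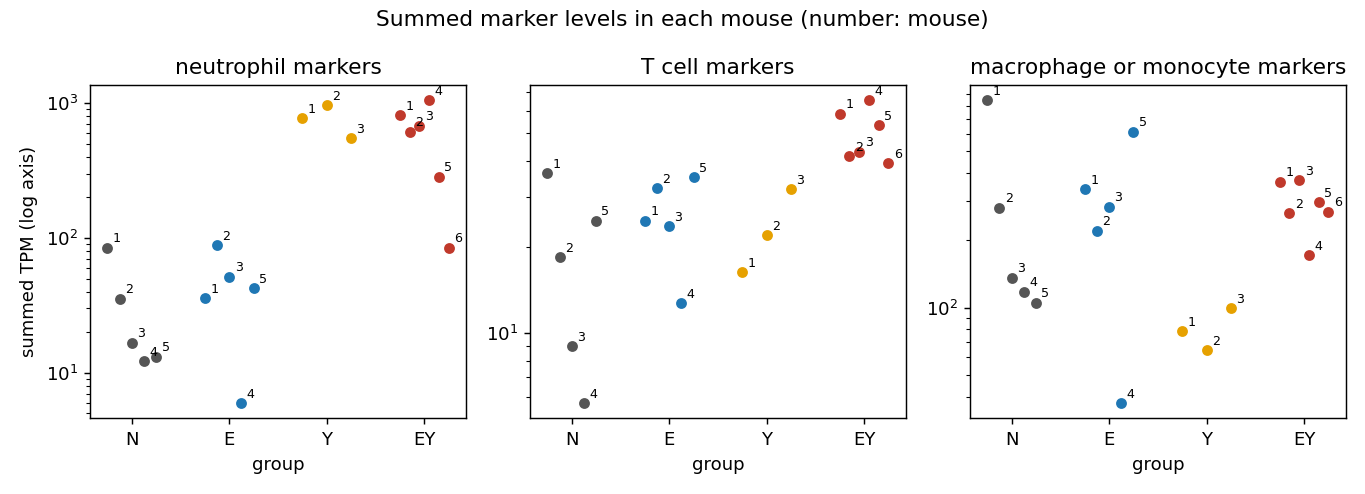
Summed TPM of neutrophil, T cell and macrophage or monocyte markers in each mouse, on a log axis. Neutrophil marker sums reached 964 TPM in Y and 1050 TPM in EY epithelia, beside at most 84.3 TPM in N mice. S100a8 and S100a9 averaged 496 and 249 TPM of the 762 TPM mean sum in Y epithelia. In EY epithelia they averaged 381 and 147 TPM of 587 TPM.

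T cell markers summed to between 5.69 and 36.3 TPM in N and between 39.4 and 65.4 TPM in EY mice. Thy1 was the most abundant in N, at 9.79 TPM, and averaged 9.81 TPM in EY epithelia. Trbc2 was the most abundant in EY epithelia, at 28.0 TPM beside 4.78 TPM in N. Of the 12 markers, 3 rose in EY epithelia (Cd3d, Lck and Trbc2). In E epithelia Lck was the 1 DEG by limma, and limma voom gave 0. No macrophage or monocyte marker of 12 was a DEG in EY epithelia by limma, with 5 at an unadjusted p under 0.05, and limma voom gave 0. Lyz2 led their sums in N, E and EY epithelia, and Cd68 in Y. The sums were highest in N mouse 1, at 847 TPM, the N mouse with the most Csf1 and the N mouse with Csf2 and Osm reads. Among 8 markers of Langerhans or dendritic cells, cells that carry the TSLP receptor in part, Ccr7 rose and Cd207 fell in EY epithelia. Of the fibroblast markers Dcn fell, and the mast cell, endothelial and skeletal muscle lists gave 0 DEGs in EY epithelia by limma, with 1, 0 and 1 at an unadjusted p under 0.05 and 1, 0 and 0 by limma voom. Muscle markers, led by Acta1, summed to 1270 TPM in EY mouse 3 and to at most 234 TPM in any other mouse. Of the squamous epithelium markers Cdh1, Epcam and Krt14 rose and Krt13, Krt15 and Krt4 fell in EY epithelia, where their mean sum was 66900 TPM beside 121000 TPM in N epithelia.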

How the data were processed

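Polyadenylated RNA of tongue epithelium from 19 mice was measured as TPM, the unit of the deposited values per the labels and the file. The submitters' notes name STAR 2.7.9, SAMtools 1.7, HTSeq 0.13.5 and DESeq2 1.34.0 on GRCm39; how the authors made TPM from counts is not stated in these notes. Because the unit is TPM, limma 3.58.1 (R 4.3.3; trend, Benjamini-Hochberg over 22745 genes) was fitted to log2(TPM + 0.1) with 1 mean for each of 4 groups, and was tested on simulated data. Whole reads were recovered from the steps of the TPM values for 24680 of 24680 genes above 0, for depth, floors and limma voom. The recovery assumes whole-read counting. It gives the smallest whole numbers that fit the values of each gene, so the reads of genes seen in few mice are lower bounds. Plots came from matplotlib 3.10.9 and tables from pandas 2.3.3 over numpy 2.4.6 (Python 3.11.15). Members and lists were chosen with earlier results of these data known. Named genes were the members, genes of the lists, RefSeq neighbours (GRCm38.p6, used for names, order and promoters) and the 3 most alike genes per member. Alternatives were the pseudocount, the filter, 2 scalings, 3 control mice, a block on mouse number, the p threshold, limma voom and leaving out each mouse. Some genes of the lists count in the totals and medians and are not reported here.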

Additional observations from a re-analysis of the deposited data

Results flagged for a closer look

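In 47 genes followed here, 134 groups of 5 or 6 mice were searched for a mouse far from the others on the log2(TPM + 0.1) scale, and 9 had such a mouse. In 4 of the 9 the other mice were all at 0, where any read stands apart, so the count is not compared with a chance rate. The 3 Y mice were too few for this search. Il24 in E mouse 2 was 3.49 TPM and 0 in the other E mice. Il11 in EY mouse 4 was 0.0 TPM, below 0.282 to 0.533 TPM in the other EY mice. Csf2 in N mouse 1 was 0.476 TPM and Osm in the same mouse 0.866 TPM, each 0 in the other N mice. Il33 in EY mouse 4 was 24.0 TPM, beside 32.3 to 38.4 TPM. Il20rb in N mouse 2 was 5.02 TPM, beside 7.80 to 9.18 TPM. Stat3 in EY mouse 5 was 10.1 TPM, beside at most 13.3 TPM in the other EY mice. Socs1 in E mouse 4 was 2.03 TPM, beside 6.66 to 8.20 TPM. Il17f in E mouse 4 was 0.0496 TPM and 0 in the other E mice. The cause of these values was not tested.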

How the results depend on the processing

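Of 340 single-gene values under 10 alternatives and 19 fits without 1 mouse, 9621 held, 108 lost and 52 gained a call (genes other than members), 19 member values moved by more than the largest SD within a group, and 0 called values changed sign. The 6 members of EY against N became 5 at a pseudocount of 1 TPM and with only the 3 N mice that had both regulatory alleles, each time without Il19. The 4 members of Y against N became 2 at a pseudocount of 1 TPM and 1 with only 3 N mice, and ranged from 1 to 4 without 1 mouse. In Y epithelia the Il19 call ended under 22 settings, the Csf3 call under 11 and the Tslp call under 3. E against N gave 0 members, also in each fit without 1 mouse at an adjusted p under 0.01, and gave 1, Tslp, at an adjusted p under 0.05 with all mice. Receptor genes of EY against N, 2 at first, were 1 at a pseudocount of 1 TPM and 1 at a filter of 1 TPM, and ranged from 2 to 5 without 1 mouse. Related ligand genes went from 4 to 2 with only 3 N mice (3 to 4 without 1 mouse), and JAK-STAT genes from 6, all higher, to between 4 and 8 (5 to 7 without 1 mouse), with Pias3 as 1 lower gene after either scaling and with only 3 N mice. G-CSF axis genes went from 5 to 3 after median-of-ratios scaling, to 3 with only 3 N mice and to 9 at an adjusted p under 0.05, and ranged from 3 to 8 without 1 mouse. For EY against Y the 4 lists gave 1, and 0 at a filter of 1 TPM, after either scaling and with only 3 N mice, 2 by limma voom, and 0 to 1 without 1 mouse. EY against E gave 11, 17 at an adjusted p under 0.05 and 7 to 12 without 1 mouse, and the interaction 0 throughout. Median-of-ratios scaling changed the split of all EY against N DEGs from 2858 higher of 4157 to 1540 higher of 3512, and quantile normalization to 1632 of 3544. The causes were not tested.

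With the mouse number as a replicate block, the member counts were 6 in EY, 3 in Y and 0 in E, the receptor count 2, related ligands 3, JAK-STAT 7, G-CSF axis 6, EY against Y 0, EY against E 13 and the interaction 0. None of 24 same-numbered pairs of mice had deviations correlated above 0.1 (from -0.043 to 0.076), so the numbers do not pair the mice. Depth limits Il6, Il11, Csf2 and Il20, which rest on few reads.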
